A study of Mus musculus with 4 samples.

Results

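A small group of cells with pigment genes was found in the libraries of sorted cortical cells from *Setd5*+/+ and *Setd5*+/- fetuses. Whether these cells came from the fetuses was not tested, and they followed neither the *Xist* nor the *Setd5* level of their libraries, as described at the end. The cells were selected on measured values: a cell was placed in this group when it had at least 1 unique molecular identifier (UMI, the tag that counts each captured transcript once) for at least 3 of *Dct*, *Pmel*, *Mlana*, *Tyrp1* and *Gpnmb*, which are genes of melanocytes. The rule selected 133 of 6562 cells. These 133 cells carried only 36 distinct cell barcodes of 6366 in the whole table, because most of the barcodes recurred in every library. The barcode was therefore the unit of description, repeats of a barcode were averaged, and no comparison between genotypes was made.

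The study profiled C57BL/6J mouse fetuses at E18.5, shortly before birth, with 2 wild-type and 2 *Setd5*+/- samples. The heterozygotes carried the *Setd5* GFP allele as a knockout allele in every cell. The cortical suspension was sorted with antibodies to a surface protein of neurons (CD24) and one of blood cells (CD45). CD24+ CD45- cells were then captured in droplets with the 10x Genomics 3′ version of the assay. The cell names carry the prefixes WT3, WT6, Het5 and Het9, which give the genotype of a library but not its replicate number in the sample labels. The libraries held 8205330 to 11742956 UMIs, and a cell held 1258 to 14996 of them. Levels are given as counts per 10000 UMIs of the cell (CP10K), as mean ± SD over the 36 barcodes unless stated otherwise.

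Melanocytes are pigment-producing cells that derive from the neural crest and settle in the skin, the hair follicle, the inner ear, the heart and the meninges. They make melanin from tyrosine inside the melanosome, an organelle related to the lysosome. Tyrosinase, *Tyrp1* and *Dct* encode its enzymes, *Pmel* encodes the fibrils on which pigment is laid down, and the transcription factor encoded by *Mitf* activates most of these genes. The retinal pigment epithelium makes melanin too, but arises from the optic cup rather than the neural crest.

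In droplet libraries, the cell barcode is a run of 16 bases that marks the droplet. The barcodes were named P1 to P36 from the highest to the lowest mean number of UMIs. The deepest of those found under all 4 prefixes, the shallowest of them, and one found under a single prefix are shown here because the sharing of these sequences defines how the cells can be counted.
P2: gactaacaggtgcttt
P3: ggatgttcacttggat
P36: cgattgagtggtgtag
P28: cgaacatgtcagtgga
Across the 630 pairs of pigment cell barcodes, the median number of differing letters was 12 and the lowest was 4. The closest pair was P1 and P21, shown next with the differing letters in capitals.
P1: GGTgtTacagtgacag
P21: TCGgtAacagtgacag

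Of the 36 barcodes, 32 were found under all 4 prefixes, 1 under 3, 1 under 2 and 2 under 1. Expressed in cells, 126 of 133 pigment cells (94.7%) carried a barcode found under all 4 prefixes, against 98 of 6429 other cells (1.52%). In the whole table, 56 barcodes were found under all 4 prefixes, and 32 of them (57.1%) held a pigment cell. The other 24, with 96 cells, had a summed level of 0 to 382 CP10K of immune genes with a median of 259, against prefix means of 0.369 to 3.70 in the cells described below as the reference, and are called the other shared barcodes. The prefix WT3 held 35 pigment cells (2.41% of its cells, exact Clopper-Pearson 95% interval 1.68% to 3.33%) and WT6 held 33 (1.69%, 1.17% to 2.36%). Het5 held 32 (1.87%, 1.28% to 2.63%) and Het9 held 33 (2.28%, 1.58% to 3.19%). These intervals cover counting error only, and the 4 shares rest on nearly the same barcodes.

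The repeats of a barcode were close in depth but were not identical copies. P2 held 12554, 11815, 12290 and 11950 UMIs under WT3, WT6, Het5 and Het9, and P36 held 2298, 2215, 2211 and 2193. In the 32 barcodes with 4 repeats, the range of the totals was 0.774% to 10.3% of their mean, with a median of 5.31%. The highest of the 4 totals stood under WT3 in 24 of these 32 barcodes, under Het5 in 7, under WT6 in 1 and under Het9 in 0. P27, where WT3 and Het5 tied at 3627 UMIs, was counted for WT3. Over the 190 pairs of repeats, totals differed by a median of 2.76%, against 43.2% for 2147 pairs of different pigment cell barcodes within a library.

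**Figure D1:**
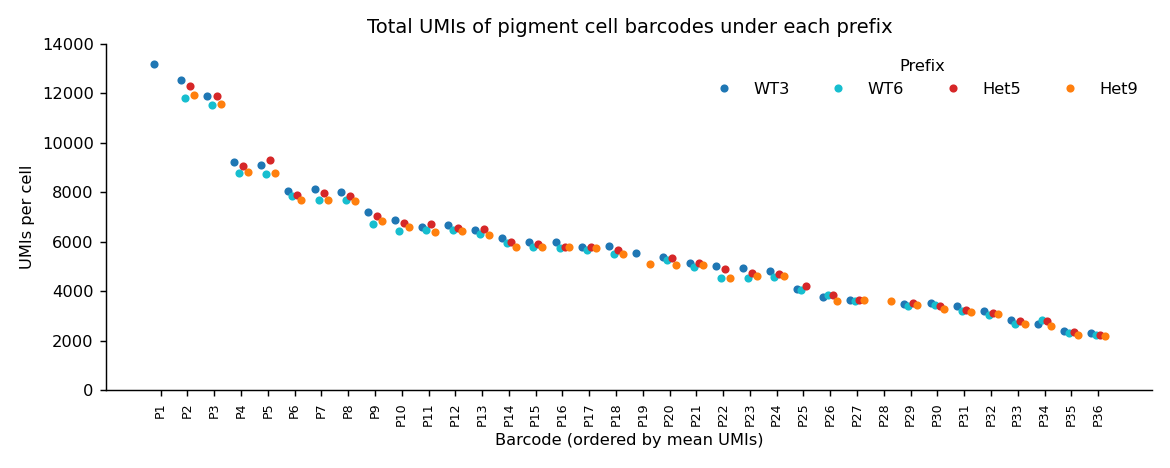
Total UMIs per cell (vertical axis) for each of the 36 pigment cell barcodes (horizontal axis, ordered by mean UMIs), with 1 point per prefix. The points of a barcode lie close together, within 10.3% of their mean, while barcodes run from 2229 to 13190 UMIs, and P1 and P28 have a single point.

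Gene by gene, the repeats differed by slightly less than separate draws of one set of transcripts would. The chi-square statistic per degree of freedom, taken over genes with at least 10 UMIs in a pair, is about 1 for 2 separate random draws from the same mean. Its median was 0.822 (range 0.577 to 1.11) over the 190 pairs of repeats and 2.58 over pairs of different pigment cell barcodes. For 21 pairs of other cells whose barcode occurred under 2 prefixes, the median was 2.88, and their totals differed by a median of 31.3%. The other shared barcodes gave 0.819 over 144 pairs. Among the rule genes, the 4 repeats had the same UMI count in 1 of 160 combinations of gene and barcode, and the largest difference was 23 UMIs. In P3, *Pmel* had 30, 21, 26 and 32 UMIs under WT3, WT6, Het5 and Het9, and *Gpnmb* had 22, 20, 22 and 27. How the same barcodes came to be under 4 prefixes was not tested.

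Cells at the edge of the rule were few. All 5 genes were detected in 106 cells, 4 in 23 cells and 3 in 4 cells. Just outside, 5 cells had 2 of the 5 genes. Of these, 2 were repeats of pigment cell barcodes: P32 under Het9 had 4 UMIs of *Dct* and 1 of *Tyrp1*, and P34 under Het5 had 1 of *Pmel* and 3 of *Mlana*. The 4 cells just inside were P17 under Het5, P32 under WT3 and P34 under WT3 and WT6, so P32 and P34 lay on both sides of the limit.

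The 5 genes that chose the cells were also the 5 genes with the highest ratio to the remaining cells, which follows from the choice and is given as a description. *Dct* (dopachrome tautomerase, chr14:118012790-118052244, minus strand, GRCm38) averaged 46.6 ± 22.9 CP10K, with a lowest, median and highest barcode of 7.38, 43.8 and 131. *Gpnmb*, a melanosomal glycoprotein (chr6:49036546-49070929, plus strand), averaged 20.7 ± 12.6, from 0 through 21.6 to 48.4, and was seen in 34 of 36 barcodes. *Pmel* (chr10:128704195-128720238, plus strand) averaged 19.8 ± 18.49, from 0.758 through 13.8 to 69.0. The spread of *Pmel* was nearly as large as its mean, and its repeats stayed close: 0.884 of the variance of a single cell lay between barcodes rather than between repeats. *Mlana*, a membrane protein of early melanosomes (chr19:29697824-29708634, plus strand), averaged 16.7 ± 11.03, from 3.77 through 11.8 to 47.5. *Tyrp1* (chr4:80834123-80851719, plus strand) averaged 12.1 ± 12.9, from 0.316 through 8.16 to 70.4. Its highest barcode was P31, and P6 and P21 were the lowest.

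Summed over the 5 genes, the level was 116 ± 49.2 CP10K and ran from 23.6 in P32 to 211 in P28. Under the prefixes WT3, WT6, Het5 and Het9, the mean of *Dct* over cells was 41.7, 46.3, 46.7 and 50.4, and that of *Pmel* was 20.3, 21.0, 20.9 and 20.9. These 4 means come from nearly the same barcodes and are not replicates. The reference for all ratios was the 6331 cells outside the group whose barcode was not under all 4 prefixes, averaged with equal weight per prefix. Among them, *Dct* had a UMI in 109 cells, *Pmel* in 5, *Gpnmb* in 5, *Tyrp1* in 3 and *Mlana* in 2. *Dct* is also known from neural progenitors, and it had a UMI in 68 of 2560 reference cells with a *Sox2* UMI (2.66%) and in 41 of 3771 without one (1.09%), at median depths of 6248 and 5505 UMIs. By prefix, the median depth was 5517 to 5781 UMIs in pigment cells and 5431 to 6041 in the cells outside the group.

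**Figure D2:**
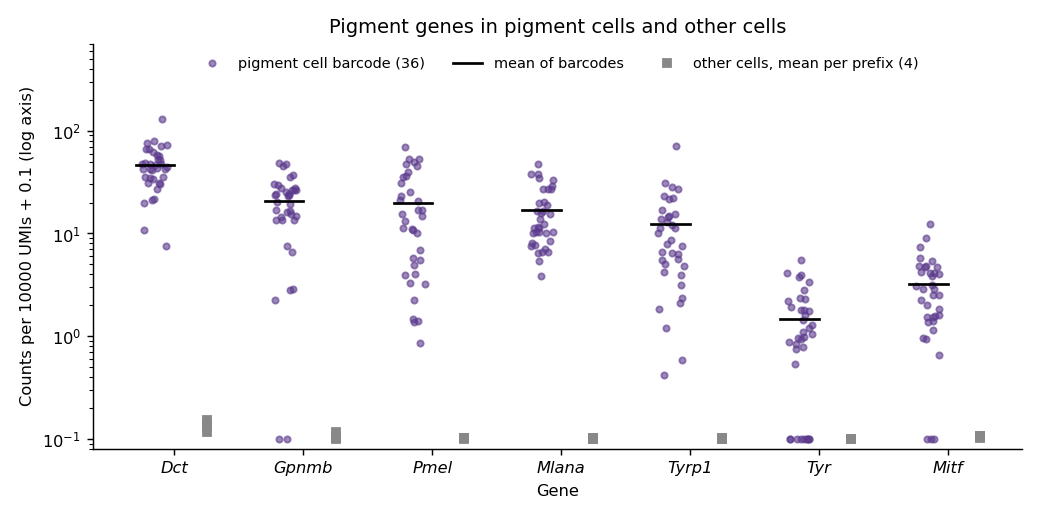
Level of 7 pigment genes as CP10K + 0.1 on a log axis. Each violet point is 1 of 36 barcodes with its repeats averaged, the black line is their mean, and grey squares are the means of the reference cells under each of the 4 prefixes. *Dct* was the highest of the 7 in mean, and *Tyr* and *Mitf* were at 0 in 9 and 3 barcodes.

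The promoters of the melanin enzymes are shown because all 3 share a motif that the Mitf protein is known to bind. The windows run from 250 bases before to 50 bases after the RefSeq start on GRCm38.p6, and the capitals mark TCATGTG on either strand, where CACATGA is the same site read from the other strand. The *Tyr* window is chr7:87493463-87493762 (minus strand), that of *Tyrp1* is chr4:80833963-80834262 (plus strand) and that of *Dct* is chr14:118052197-118052496 (minus strand).
Tyr: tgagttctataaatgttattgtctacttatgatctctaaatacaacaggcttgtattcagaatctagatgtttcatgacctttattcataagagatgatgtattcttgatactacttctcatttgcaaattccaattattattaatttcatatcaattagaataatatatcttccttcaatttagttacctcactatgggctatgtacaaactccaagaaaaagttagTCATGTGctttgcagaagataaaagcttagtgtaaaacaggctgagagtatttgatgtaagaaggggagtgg
Tyrp1: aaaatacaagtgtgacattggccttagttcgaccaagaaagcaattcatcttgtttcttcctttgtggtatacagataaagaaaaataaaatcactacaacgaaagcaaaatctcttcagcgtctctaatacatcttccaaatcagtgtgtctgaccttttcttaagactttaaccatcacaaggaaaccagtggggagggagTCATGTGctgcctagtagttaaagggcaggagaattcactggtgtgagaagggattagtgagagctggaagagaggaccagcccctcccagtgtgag
Dct: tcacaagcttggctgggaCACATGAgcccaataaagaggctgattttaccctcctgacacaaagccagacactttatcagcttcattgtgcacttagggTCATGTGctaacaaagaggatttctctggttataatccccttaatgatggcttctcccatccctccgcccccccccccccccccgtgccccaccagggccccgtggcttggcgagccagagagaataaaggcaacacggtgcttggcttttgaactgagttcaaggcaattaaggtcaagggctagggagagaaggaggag
The motif began 22 bases before the start of *Tyr*, 47 bases before that of *Tyrp1*, and 232 bases (on the opposite strand) and 151 bases before that of *Dct*. TCATGTG was in 1239 of 32851 windows (3.77%), the shorter CATGTG that lies within it in 14.2% and the palindrome CACGTG in 7.15%. The *Gpnmb* window (chr6:49036268-49036567) did not hold TCATGTG. *Pmel* and *Mlana* had no entry. Over the 23 genes of the lists of melanin enzymes and melanosome proteins, 17 had a window and 7 of these held the motif (41.2%): *Dct*, *Slc24a5*, *Slc7a11*, *Trpm1*, *Tspan10*, *Tyr* and *Tyrp1*. This share is per gene, with a match in any window of the gene counted, whereas the 3.77% is per window. A match is a string in the window and was not tied to binding.

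The levels of the pigment cells were compared with the reference cells for 9235 genes with a mean of at least 0.1 CP10K in either. A gene was called higher or lower at a 4-fold ratio of (mean + 0.1), with no test, since cells of one capture are not replicates. At that limit, 373 genes were higher (4.04% of those compared) and 635 were lower (6.88%), and the median log2 ratio was -0.26. The lowest pigment cell barcode lay above all 4 prefix means of the reference cells for 18 of the 373 higher genes. The 5 rule genes are among the 373, and 4 of them are among the 18, which their choice fixes in part. Of the other 368 higher genes, 249 had a reference mean under 0.1 CP10K, so they entered the comparison through the pigment cells alone and could not have been called lower. The counts on gene lists that follow hold such genes too and are descriptions. They also depend on the 0.1 CP10K added to each mean. With 1 added instead, 26 of 40 such counts fell by over 1.5 times. Among them were immediate early genes from 13 to 7, hypoxia genes from 8 to 3, interferon genes from 7 to 2, lysosome genes from 4 to 0 and lower neuronal genes from 22 to 12. The pigment lists fell too: melanosome proteins, rule genes included, from 10 to 5, and melanosome transport genes from 3 to 0. Melanocyte transcription factors and receptors each went from 3 to 1, neural crest genes from 3 to 0 and melanin enzymes from 3 to 2.

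Of the 3 melanin enzymes, *Dct* and *Tyrp1* chose the cells. *Tyr*, the rate-limiting enzyme and the one that the rule did not use, averaged 1.37 ± 1.34 CP10K in 27 of 36 barcodes against 1 UMI-bearing cell of 6331. Of 20 genes for fibril and membrane proteins of the melanosome, 16 were compared, among them the rule genes *Pmel*, *Mlana* and *Gpnmb*. Of the other 13, 7 were higher and 0 lower, with a median log2 ratio of 3.47, or 4.06 with genes at 0 UMIs in one of the groups set to the level that 3 counts allow. A reference mean under 0.1 CP10K was found for 5 of these 7. *Slc45a2*, a melanosomal transporter, averaged 2.65 ± 2.31 (33 barcodes) and *Tspan10* averaged 1.01 ± 1.10 (25 barcodes), and neither had a UMI in the 37759776 UMIs of the reference cells. *Rab38*, a small GTPase that carries enzymes to the melanosome, averaged 2.37 ± 1.42 against a UMI in 1 reference cell. *Trpm1*, a channel gene that is a classical target of Mitf, averaged 1.49 ± 1.69, and *Bace2*, a protease that cuts the fibril protein, averaged 1.58 ± 1.41. *Cd63*, a tetraspanin of late endosomes and melanosomes, averaged 19.3 ± 10.1 against 1.04 (17.02-fold). *Syngr1* averaged 8.35 ± 4.002 against 0.151 (33.6-fold).

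Not every melanosome gene was high. *Oca2* was seen in 8 barcodes (0.137 ± 0.287) and *Gpr143* in 6 (0.144 ± 0.353), and both missed the 4-fold limit. *Rab32*, which works beside *Rab38*, was seen in 1 barcode (0.0126 ± 0.0755) and was not compared. The ion exchanger gene *Slc24a5* averaged 3.20 ± 3.61 against 1.65. Its last part overlaps the end of *Myef2* on the other strand (chr2:125084628-125088677), and whether counting used strand is not given in the sources used here, so the reference value is uncertain. Likewise, the start of *Pmel* overlaps *Cdk2* on the other strand (chr10:128704195-128705031).

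The machinery that moves and builds melanosomes was mostly near the level of the reference cells. Of 27 genes, 24 were compared, 3 were higher and 1 was lower. The higher ones were *Rab38*, described above, *Mlph* (melanophilin, 0.696 ± 1.12, 7.94-fold) and *Rab27a* (0.542 ± 0.687, 6.27-fold). The products of *Mlph* and *Rab27a* tether melanosomes to actin together with that of *Myo5a*. *Myo5a* itself averaged 1.58 ± 1.32 against 0.367 (3.59-fold) and missed the limit. The lower one was *Ap3s1*, an adaptor subunit, at 0.668 ± 1.03 against 3.04, and it missed the limit without P1. The subunits of the BLOC-1 complex were compared as 6 *Bloc1s* genes, *Dtnbp1* and *Snapin*, and none of them passed the limit. The median log2 ratio of the list was 0.30.

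Of 15 transcription factors of melanocytes, 10 were compared, 3 were higher and 1 lower, with a median log2 ratio of 0.68 (0.89 with genes at 0 UMIs at their limit). *Mitf* averaged 3.11 ± 2.57 CP10K in 33 barcodes against 0.00524 (30.5-fold). *Pax3*, which acts upstream of it, averaged 2.58 ± 1.95 in 30 barcodes and had 0 UMIs in the reference cells. *Sox10*, the neural crest factor that also acts upstream, averaged 0.919 ± 0.996 in 24 barcodes against 0.00163 (10.0-fold). *Zeb2*, which is shared with neurons, averaged 1.69 ± 1.40 against 2.41. The lower gene was *Sox5*, at 0.0766 ± 0.195 against 1.04. *Lef1* had 0 UMIs in pigment cells, for which 3 counts per prefix allow up to 0.163 CP10K.

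Among 12 receptors and ligands, 5 were compared, 3 were higher and 0 lower, with a median log2 ratio of 2.09 (2.51 with genes at 0 UMIs at their limit). *Met*, the receptor of hepatocyte growth factor, was the highest at 4.18 ± 2.95 in 33 barcodes against 0.00587 (40.5-fold). *Mc1r*, the melanocortin receptor that turns on eumelanin synthesis, averaged 0.515 ± 0.622 in 20 barcodes (5.71-fold), and *Erbb3* averaged 0.326 ± 0.675 in 11 barcodes with 0 UMIs in the reference cells. *Kit*, the receptor on which melanoblasts depend, had a UMI in 1 barcode (0.0120 ± 0.0718 against 0.0709). *Ednrb*, the endothelin receptor of melanoblasts, had 0 UMIs, against 0.177 in the reference cells.

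Genes of the neural crest and Schwann cell precursors were higher for 3 of 8 compared (15 listed) and lower for 1. *Sox10* and *Erbb3* are on this list too, and the other higher gene was *S100b*, a calcium-binding protein (1.37 ± 1.63 against 0.00165, 14.5-fold). *Ngfr* had 0 UMIs. The lower gene was *Gap43*. For the retinal pigment epithelium, 11 of 18 listed genes were in the table, 5 were compared, 0 were higher and 4 were lower. Its markers *Best1*, *Rdh5*, *Otx2*, *Ttr* and *Pax6* had 0 UMIs in all 133 pigment cells. The lower calls were *Ttr*, *Pax6*, *Six3* and *Rlbp1*, at 0.506 to 0.867 CP10K in the reference cells, and became 0 with 1 added to each mean. The reference cells are neural and use several of these genes themselves, so a level below theirs does not tell the 2 kinds of pigment cell apart. *Rpe65*, *Lrat* and *Rgr*, more particular to that epithelium, were on the list but not in the table, so their levels are unknown.

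**Figure D3:**
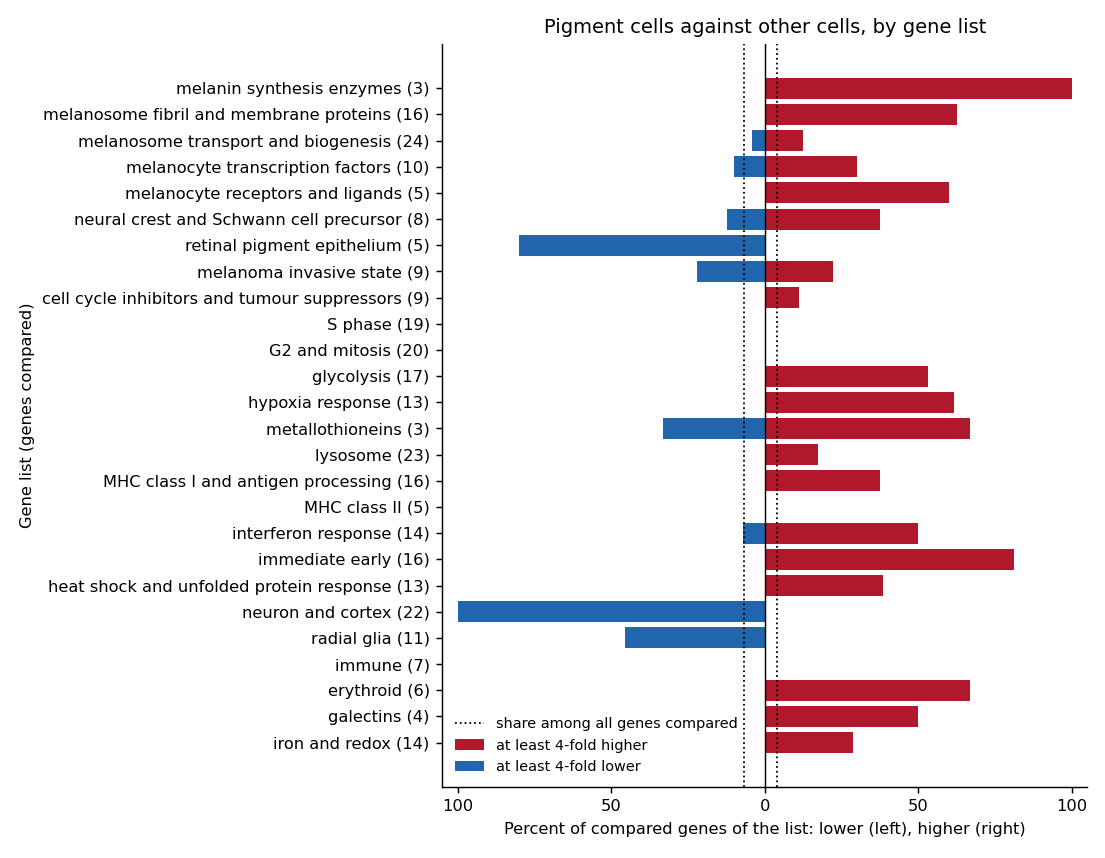
Percent of compared genes of each list that were at least 4-fold higher (right) or lower (left) in pigment cells than in reference cells, with the number of compared genes in parentheses. Dotted lines mark 4.04% and 6.88%, the shares among all genes compared. The lists of melanin enzymes, melanosome proteins, immediate early genes and hypoxia genes lean to the right, those of neurons and the retinal pigment epithelium to the left. The first 2 of these lists hold 2 and 3 rule genes, which are counted in their bars. The 4 erythroid genes at the right rest on P1 alone.

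Markers of other cell types were low in most barcodes. All 22 neuronal and cortical genes were lower, with a median log2 ratio of -4.58 (-4.41 with genes at 0 UMIs at their limit). *Neurod2* and *Eomes*, factors of excitatory neurons and their progenitors, had 0 UMIs, and *Tubb3* averaged 0.858 ± 1.19 against 21.7. The summed neuronal level was 0 to 14.2 CP10K per barcode against 180 to 194 for the prefix means of the reference cells. Of 11 compared radial glia genes (12 listed), 5 were lower and 0 higher, with *Sox2* at 0.0211 ± 0.126 against 1.79. The intermediate filament gene *Vim*, also a radial glia gene, averaged 11.9 ± 7.74 against 5.17. Of 20 immune genes, 7 were compared and 0 passed the limit in either direction, and the defining markers *Ptprc*, *Cd3e*, *Csf1r* and *Cd79a* had 0 UMIs. Of 9 keratinocyte genes, 6 were in the table and had 0 UMIs throughout, while *Krt5*, *Krt14* and *Krt15* were not in it. Endothelial and mural genes summed to at most 0.873, and of 11 meningeal and fibroblast genes 9 were in the table and 7 of them, *Col1a1* and *Dcn* included, had 0 UMIs. *Lgals1* was the higher gene of that list.

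The sort was for CD24, yet its gene *Cd24a* was among the 10 genes of lowest ratio. It had a UMI in 5 of 36 barcodes and averaged 0.148 ± 0.531 CP10K against 13.5 (54.8-fold lower). *Cd24a* reached 3.03 CP10K in P1 and at most 0.789 in the others. *Ptprc*, which encodes CD45, had 0 UMIs. The other 9 of the lowest 10 were *Igfbpl1* (0.0650 ± 0.217 against 20.7), *Nnat*, *Tubb2b*, *Nfix*, *6330403K07Rik*, *Pantr1*, *Hist3h2ba*, *Auts2* and *Basp1*, which are genes of neurons or neural progenitors for the most part. *Hist3h2ba* had 0 UMIs in pigment cells against 6.25 CP10K.

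After the 5 rule genes, the highest ratios belonged to *Chchd10*, a mitochondrial protein (18.9 ± 9.75 against 0.0625, 117-fold), and *Ptgds*, prostaglandin D synthase (18.9 ± 13.3 against 0.117, 87.7-fold). Both had a UMI in all 36 barcodes. The remainder of the first 20 were *Mt1*, *Lgals1*, *Lgals3*, *Klf2*, *Tm4sf1*, *Ifi27*, *Met*, *Cryab*, *Mt2*, *B2m*, *Syngr1*, *Phlda1* and *Anxa1*. The galectins *Lgals1* (35.1 ± 20.2 against 0.425) and *Lgals3* (10.1 ± 11.5 against 0.0910) were the 2 higher of 4 galectin genes. They also averaged 26.2 and 15.7 in the other shared barcodes.

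Genes of glycolysis were higher for 9 of 17 and lower for 0, with a median log2 ratio of 2.07. Their summed level was 17.4 to 375 CP10K per barcode with a median of 189, against 31.5 to 35.5 over the prefixes of the reference cells. P1 was the lowest, and every other barcode was at 74.1 or above, over each of the 4 prefix means. *Gapdh* averaged 64.0 ± 33.2 against 9.48 (6.70-fold), *Aldoa* 28.3 ± 15.6 against 1.52 (17.5-fold), *Ldha*, which makes lactate, 22.2 ± 10.6 against 2.27 (9.40-fold), and *Hk2*, the first step of the pathway, 2.11 ± 2.20 against 0.0892 (11.7-fold). *Ldhb* averaged 4.93 ± 3.67 against 4.65. *Pkm*, the last step, averaged 20.1 ± 9.67 against 7.26 (2.75-fold) and missed the limit. The other shared barcodes had a summed level of 58.0.

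Hypoxia response genes were higher for 8 of 13 compared (14 listed) and lower for 0, with a median log2 ratio of 2.22. *Ero1l*, an oxidase of the endoplasmic reticulum, averaged 5.85 ± 8.61 against 0.119 (27.1-fold), and *Bnip3*, which removes mitochondria, 5.37 ± 4.79 against 0.327 (12.8-fold). *Car9*, a carbonic anhydrase induced by low oxygen, averaged 1.90 ± 2.24 in 24 barcodes and had a UMI in 2 of the 6331 reference cells. *Vegfa* averaged 1.23 ± 1.45 against 0.0722 (7.72-fold), and *Ddit4* averaged 1.72 ± 2.08 against 0.953. The summed level was 4.28 to 98.8 per barcode against 3.42 to 3.96 for the 4 prefix means of the reference cells. The other shared barcodes averaged 7.92. Metallothioneins, which bind zinc and copper, differed by member. *Mt1* averaged 34.6 ± 36.1 against 0.378 (72.6-fold) and *Mt2* 14.6 ± 17.8 against 0.297 (36.9-fold), and *Mt3*, the neural form, had 0 UMIs against 1.45.

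Of 25 lysosome genes, 23 were compared, 4 were higher and 0 lower: *Ctsz* (5.98-fold), *Hexa* (5.89-fold), *Laptm4b* (4.22-fold) and *Gaa* (4.06-fold). The last 2 were near the limit, and 2 genes of the list were called without WT6. Iron and redox genes were higher for 4 of 14 compared (15 listed). *Fth1*, ferritin heavy chain, averaged 45.2 ± 26.0 against 8.82 (5.08-fold), *Tfrc*, the transferrin receptor, 1.49 ± 1.58 against 0.0908 (8.31-fold), and *Apoe* 11.6 ± 6.82 against 0.749 (13.8-fold). *Hmox1* was the other higher gene. The summed lysosome level averaged 45.9 CP10K in the other shared barcodes, above the 35.0 of the pigment cells, and that of iron and redox genes averaged 130 against 187.

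Immediate early genes, which respond within minutes to many stimuli, were higher for 13 of 16 compared (17 listed) and lower for 0, with a median log2 ratio of 3.72. *Fos* averaged 16.3 ± 12.7 in 32 barcodes against 0.470 (28.9-fold). *Jun* was 13.6-fold above a reference level of 0.791, with *Klf2* at 7.04 ± 6.92 against 0.0502 (47.6-fold) and *Atf3* at 3.81 ± 4.06 against 0.0343 (29.1-fold). In the other shared barcodes, *Fos* averaged 17.7 and *Jun* 13.4, and the list summed to 116 CP10K against 70.5 in the pigment cells. Heat shock and unfolded protein genes were higher for 5 of 13 compared (14 listed), among them *Ddit3* (2.59 ± 2.88 against 0.298) and *Trib3* (0.768 ± 1.02 against 0.00181), both targets of the stress factor Atf4. *Hspb1*, a small heat shock protein, had a UMI in 14 barcodes and reached 24.2. The list summed to 89.9 CP10K on average in the pigment cells, 49.4 in the reference cells and 112 in the other shared barcodes. The summed immediate early level went with the share of UMIs from mitochondrial genes (Spearman rho 0.67 over 36 barcodes, a description).

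Genes of MHC class I and antigen processing were higher for 6 of 16 compared (21 listed) and lower for 0, with a median log2 ratio of 1.45. *B2m*, the light chain, averaged 18.6 ± 12.5 against 0.444 (34.4-fold), *H2-D1* 4.45 ± 3.93 against 0.285 (11.8-fold) and *H2-K1* 2.07 ± 2.53 against 0.0660 (13.1-fold). With all cells outside the group as the reference, the other shared barcodes included, 3 of the list were higher. Interferon response genes were higher for 7 of 14 compared (18 listed; median log2 ratio 1.89), with *Ifi27* at 4.65 ± 3.81 in all 36 barcodes (41.1-fold) and *Ifitm3* at 5.43 ± 4.95 in 35 (17.3-fold). *Cxcl10* reached 19.6 in P4 and had a UMI in 8 barcodes. Both lists were higher still in the other shared barcodes. Their summed MHC class I level averaged 132 CP10K against 43.5 in the pigment cells, with *B2m* at 42.7, and the interferon level averaged 51.6 against 16.7, with *Ifitm3* at 21.7. *Ifi27* averaged 1.07 there. The 1 lower interferon gene, *Ly6e*, was at the limit (0.0710 ± 0.302 against 0.585). The summed MHC class I and interferon levels went together over the 36 barcodes (rho 0.65), and P4 was the highest in both. MHC class II genes were higher for 0 of 5 compared (7 listed) and summed to a median of 0.244, with P17 alone at 27.0. P17 was also the one barcode with a high summed immune level (26.6 CP10K, against at most 3.01 in the others), and the part of doublets in it was not tested.

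The 9 compared genes linked to the invasive state of melanoma (16 listed) gave 2 higher, *Sparc* (3.84 ± 3.93 against 0.317, 9.45-fold) and *Fn1* (1.32 ± 2.05 against 0.0884, 7.55-fold), both genes of the extracellular matrix. The list summed to 17.8 CP10K on average in the pigment cells, 9.84 in the reference cells and 20.5 in the other shared barcodes. *Cdh2* and *Zeb1* were the 2 lower, and *Egfr*, *Tnc*, *Wnt5a* and *Ngfr* had 0 UMIs. Among cell cycle inhibitors and tumour suppressors, 1 of 9 compared (11 listed) was higher: *Cdkn1a*, which encodes p21, averaged 3.14 ± 5.07 in 27 barcodes against 0.0834 (17.7-fold). *Cdkn2a* had 0 UMIs in pigment cells and a UMI in 4 reference cells. *Nf1*, *Trp53* and *Rb1* averaged 0.532, 0.995 and 0.0710 CP10K, within the 4-fold limit.

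Cell cycle genes were near the reference on average and spread widely among barcodes. None of 19 compared S phase genes (20 listed) or of 20 G2 and mitosis genes passed the limit, and the median log2 ratios were -0.70 and -0.27. The summed G2 and mitosis level was above 10 CP10K in 11 barcodes, where it ran from 11.8 to 56.1 with 11 to 20 of the 20 genes detected. In the other 25 it ran from 0 to 5.31 with 0 to 4 genes detected. *Top2a*, the topoisomerase of dividing cells, reached 12.5 in P3 and was absent from 23 of 36 barcodes. The summed level of the 5 pigment genes had a median of 102 CP10K in the 11 barcodes (24.9 to 159) and 101 in the 25 (23.6 to 211). The range of the 11 lay within that of the 25, which reached higher. Median depths were 6659 and 4749 UMIs.

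Summed list levels were set against the spread between repeats in 30 barcodes with all 4 repeats in the group. The estimated SD between barcodes and between repeats was 26.8 and 7.13 CP10K for hypoxia genes, 57.3 and 9.77 for metallothioneins, 47.4 and 10.3 for immediate early genes and 18.51 and 4.17 for G2 and mitosis genes. For melanosome transport genes it was 3.998 and 4.44, so the estimated spread between barcodes was no larger than that between repeats. Among single genes, of 1474 genes with a mean of at least 1 CP10K, 278 had an SD of at least the mean (801 with each cell thinned to 2000 UMIs, which adds counting noise), and for 273 a share of at least 0.5 of the variance lay between barcodes. The 15 most variable of these held the mitotic genes *Ube2c* (1.35 ± 3.45, up to 19.9), *Cenpf*, *Top2a*, *Cks2* and *Birc5*, and *2810417H13Rik*, a gene of DNA replication. The others were *Nppb*, a natriuretic peptide (1.13 ± 2.70 in 15 barcodes, 0 UMIs in reference cells), *Bhlhe41* (2.03 ± 4.16, up to 24.4), *Hspb1*, *Timp3*, *Car6*, *Mgarp*, *Selenbp1*, *Gbe1* and *Nupr1*.

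Hypoxia and glycolysis levels went together over the 36 barcodes (rho 0.71, with *Slc2a1* and *Pdk1*, which are on both lists, left out of glycolysis), and hypoxia and metallothionein levels did so too (rho 0.71). P21, P23, P30 and P33 were the 4 highest in both hypoxia and metallothioneins. The glycolysis level had a median of 148 CP10K in the 11 barcodes with high mitotic genes and 227 in the other 25 (rho with the mitotic level -0.59). These levels share the total of each barcode and are descriptions. The summed pigment level followed neither depth (rho -0.08) nor the mitotic level (rho -0.01), and went with the lysosome level (rho 0.57).

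**Figure D4:**
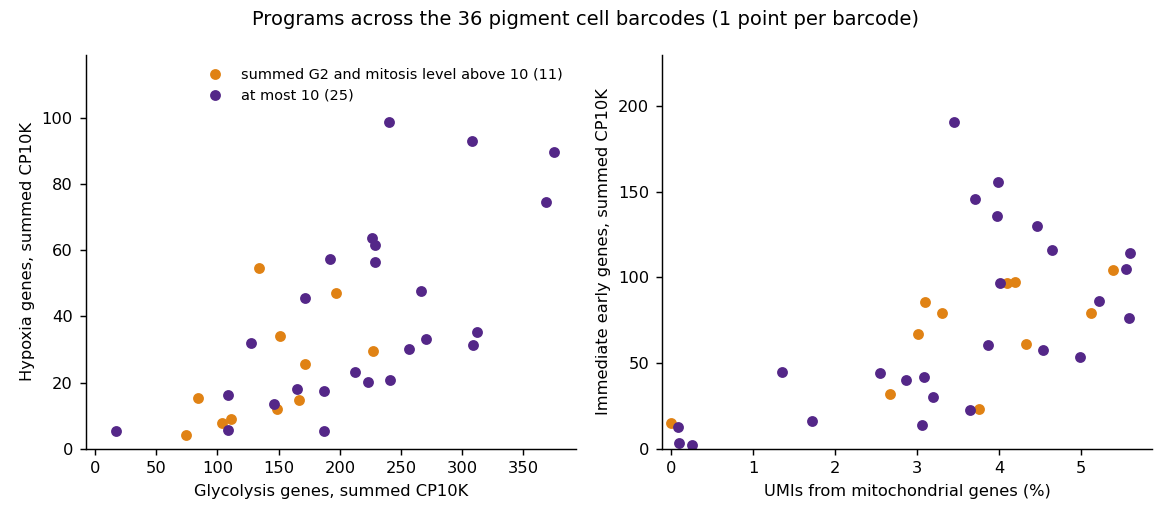
Summed CP10K of gene lists, 1 point per barcode. Left, hypoxia against glycolysis genes, where both go together (rho 0.71 after removal of shared genes from glycolysis). Right, immediate early genes against the percent of UMIs from mitochondrial genes, where 4 barcodes sit near 0 percent. Orange points are the 11 barcodes with a summed G2 and mitosis level above 10, which reach at most 227 in glycolysis.

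The pigment genes themselves did not vary as one. *Dct* and *Pmel* had a rho of 0.49, *Dct* and *Gpnmb* 0.48 and *Tyrp1* and *Pmel* 0.46, while *Dct* and *Tyrp1* had 0.07, *Mlana* and *Gpnmb* -0.12 and *Mitf* and *Pmel* -0.20. By Spearman correlation over 36 barcodes among 1474 genes, those most like *Pmel* included *Atp5b* (0.66), *Pkm* (0.65), *Idh2*, *Capns1*, *Cited1*, *Cd63*, *Slc24a5*, *Laptm4a* and *Cct7* (0.55). Those most like the summed pigment level included *Oxct1* (0.61), *Slc24a5* (0.59), *Sdcbp*, *Slc45a2*, *Cpe*, *Itgb1*, *Sfxn1*, *Cd63* and *Cct3* (0.49). *Cd63* and *Slc24a5* were on both lists. *Cited1*, a transcriptional coactivator, is known from melanocytes.

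A few barcodes stood apart. P1, under WT3 only, had the most UMIs (13190) but 1336 genes, and erythroid genes took 7519 CP10K of it, with 3085 for *Hbb-bs* and 2655 for *Hba-a1*. It also held 16 UMIs of the heme enzyme gene *Alas2*, next to 26 of *Dct*, 7 of *Mlana*, 3 of *Tyrp1*, 3 of *Tyr* and 2 of *Mitf*. None of 18 reference cells with over 50% of UMIs from globin genes had a UMI of a rule gene, and whether P1 holds more than one cell was not tested. The erythroid list gave 4 higher of 6 compared (7 listed) with P1 and 0 higher and 4 lower without it, and the other 35 barcodes summed to at most 13.6. Without P1, the 5 rule genes summed to 118 ± 47.5.

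P32, P34, P35 and P36 had at most 0.248% of UMIs from mitochondrial genes, against 1.35% to 5.59% in the other 32, and the nuclear RNA *Malat1* at 0 to 1.19 CP10K against 3.83 to 343. They were also among the shallowest, with 2229 to 3113 UMIs, and had 2.17 to 14.8 CP10K of immediate early genes, against 14.0 to 191. Both P32 and P34 were low in the 5 pigment genes (23.6 and 24.9), whereas P35 and P36 were at 208 and 137. P34 had the highest mitotic level of all (56.1). Without these 4 barcodes, 387 genes were higher and 629 lower.

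*Xist*, the RNA of the inactive X chromosome, and genes of the Y chromosome mark the sex of the source animal. In the reference cells, *Xist* averaged 21.3 and 22.1 CP10K under WT3 and WT6 and 0.0379 and 0.136 under Het5 and Het9, and *Ddx3y* averaged 0, 0.000620, 0.507 and 0.484. In the pigment cells, *Xist* averaged 0.0722, 0.0344, 0.0803 and 0.137 under the same prefixes, so the pigment cells of WT3 and WT6 were far below the reference cells of their own libraries. *Ddx3y* had a UMI in 0.752% of the 133 pigment cells, and *Eif2s3y*, *Kdm5d* and *Uty* had 0 UMIs. For these 3 genes, 3 counts per prefix allow up to 0.163 CP10K, and the reference cells of Het5 and Het9 averaged 0.592 and 0.698 for *Eif2s3y*. *Xist* reached 2.78 in P28, and 31 barcodes had none.

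*Setd5*, the gene disrupted in the heterozygotes, followed the prefix in the reference cells but not in the pigment cells. In the reference cells it averaged 1.20 and 1.08 CP10K under WT3 and WT6 and 0.529 and 0.575 under Het5 and Het9. The pigment cells averaged 1.04, 1.24, 1.23 and 1.27 under the same prefixes. Over the 36 barcodes it averaged 1.36 ± 1.66, with 27 barcodes above 0 and the highest level, 8.34, in P28. Since the same barcodes stand under both genotypes, the prefix of a pigment cell cannot be read as its genotype.

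**Figure D5:**
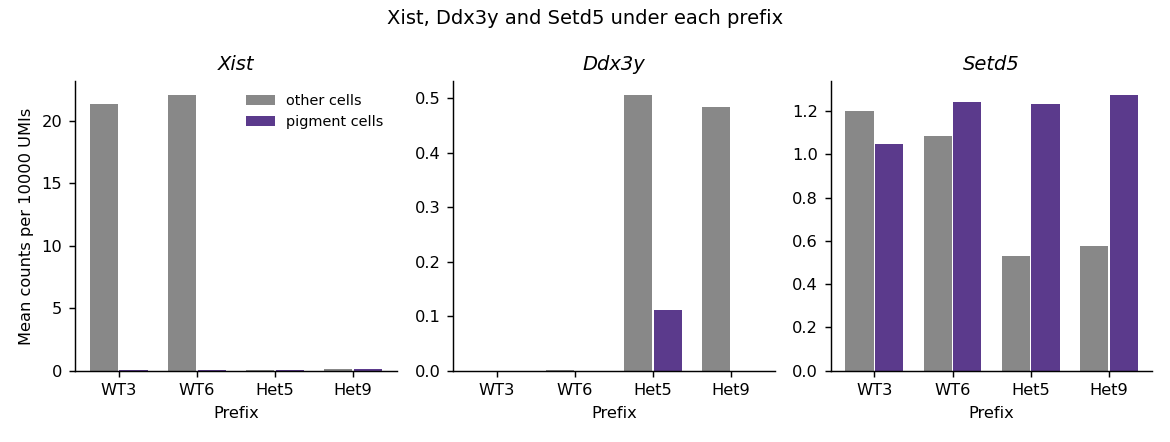
Mean CP10K of *Xist*, *Ddx3y* and *Setd5* under each prefix, in reference cells (grey bars) and pigment cells (violet bars). Reference cells reach 21.3 and 22.1 for *Xist* under WT3 and WT6 while pigment cells stay at or below 0.137 under all prefixes, and *Setd5* in pigment cells lies between 1.04 and 1.27 under all 4. The bars carry no error because the pigment cells repeat across prefixes.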

How the data were processed

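The authors deposited 1 table of 16600 genes and 6562 cells, in which each value is a natural log, ln(1 + CP10K). Tools named by the submitters were Cell Ranger 2.1 and Seurat 2.3.0, with the build mm10. How cells were filtered, which annotation was used and whether counting was stranded is not given in the sources used here. Dividing each cell's unlogged values by the lowest gave whole UMIs for 100% of 14848520 values (tolerance 0.001). The table holds 1445 to 1954 cells per prefix, fewer than the study lists per sample. No further filter on cells was applied and no doublet caller was run. A fold is (mean + 0.1)/(mean + 0.1), on CP10K averaged over repeats and then barcodes, so it understates low genes. No test was run, and no count model. A count of 0 was read as up to 3 counts. Named genes were those of the rule, of 33 gene lists, the 20 of highest and 10 of lowest fold with a mean of at least 1 CP10K, the 15 most variable, and the 10 most like *Pmel* and the summed pigment level. Some of these genes are not reported here. The members and lists were chosen with earlier results of these data known. The statistics were tested on simulated data. Coordinates are GENCODE M21 on GRCm38, and promoters RefSeq on GRCm38.p6. Python 3.11.15, numpy 2.4.6, pandas 2.3.3, scipy 1.17.1 and matplotlib 3.10.9 were used.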

Additional observations from a re-analysis of the deposited data

How the results depend on the processing

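The number of pigment cells was 138 with at least 2 of the 5 genes, 129 with at least 4 and 106 with all 5, and the share with a barcode under all 4 prefixes was 94.6% with at least 4. The chi-square per degree of freedom between repeats was 0.804 and 0.814 at minimum counts of 5 and 20. The counts of higher and lower genes depended on the pseudocount, with 885 and 1646 at 0.01 and 63 and 67 at 1, and with a mean of at least 1 CP10K required they were 219 and 287. Leaving out each prefix in turn gave 374 to 383 higher and 637 to 644 lower genes, and 328 to 388 genes with an SD of at least the mean. Thinned to 2000 UMIs per cell, which left out 148 cells outside the group, 801 genes had such an SD. Fewer counts per cell by construction add counting noise to that SD. Without P1 or without the 4 barcodes low in mitochondrial genes, alternatives chosen after seeing the data, the higher genes were 379 and 387. The level of each of the 5 rule genes stayed within 1 SD in all 50 recomputed values. Of 40 counts on gene lists, 26 moved by over 1.5 times with a pseudocount of 1, 17 with 0.01 and 12 with a mean of at least 1 CP10K required, against 0 to 5 under each of the other 11 alternatives. No paired analysis was possible because the replicate numbers of the labels could not be tied to prefixes and genotypes were not compared. Repeats of a barcode pair cells, not samples. With 183582 to 209777 UMIs in the pigment cells of a prefix, a gene below 0.143 to 0.163 CP10K cannot be told from 0 there.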
